A study of Homo sapiens with 12 samples.

Results

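The S112A mutant of SPRY2 was compared with Mock on Affymetrix expression microarrays in SW480 ADH cells, which are the adherent population of the human colon carcinoma line SW480. The comparison used the 3 arrays titled SPRY2 S112A and the 3 titled Mock, 6 of the 12 arrays of the series, chosen by their titles. The other 6 arrays held cells with wild-type SPRY2 (WT) or with its Y55F mutant, 3 arrays each. All groups were cultured for 72 h in the same serum-containing medium, and Mock cells were mock transfected. The labels do not say whether Mock cells carried an empty vector, whether transfection was transient or stable, or whether a group was 1 clone or a mixed population. Each array gave 1 log2 expression value for each of 24916 Ensembl gene IDs.

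SPRY2 encodes Sprouty2, which acts inside the cell on signals from receptor tyrosine kinases. Sprouty proteins are produced in response to growth factors and act back on the same receptors, most often by limiting the Ras and ERK branch. Sprouty2 also binds the ubiquitin ligase c-Cbl, through which it can delay the degradation of the EGF receptor. The serine that S112A replaces with alanine is a phosphorylation site, and alanine cannot be phosphorylated. In the Y55F mutant a phenylalanine replaces the tyrosine to which c-Cbl binds once it is phosphorylated.

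The deposited table lists IDs without names, and 0 of the 24916 IDs could be matched to a gene in the RefSeq table used here, which carried no Ensembl IDs. Gene names, pathway lists, markers of the colon epithelium and of other cell types, and the level of the introduced SPRY2 were therefore not analysed here. What follows counts the changes and gives their sizes and levels, with the 2 largest rises and the 2 largest falls given by ID. The other leading IDs are given by their rank.

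The 6 arrays were alike in their distribution. Their medians ranged from 7.22 to 7.32 (log2), their lowest values from 3.91 to 4.03, and no value exceeded 14.08. Across gene IDs, the S112A arrays correlated with each other at 0.995 to 0.998 and the Mock arrays at 0.997 to 0.998, while the 9 pairs of an S112A and a Mock array correlated at 0.992 to 0.994. S112A replicate 2 and Mock replicate 1 each lay closest to the mean of the other 2 arrays of their group, at a root mean square distance of 0.111 and 0.103. For the other 4 arrays this distance was 0.149 to 0.185. As a root mean square over IDs, the SD within a group was 0.132 in S112A cells against 0.114 in Mock. It was larger in S112A cells for 54% of IDs. With 3 arrays in each group, the number of arrays limits the precision.

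The difference from Mock took both directions, and most of it was small. In S112A cells 1465 gene IDs (5.88%) were higher and 1773 (7.12%) lower, together 13.0% of all IDs tested with limma at an adjusted p under 0.05. The median called rise was 1.31-fold and the median called fall 1.32-fold. The smallest differences that passed were 0.15 upward and -0.14 downward on the log2 scale. At an adjusted p under 0.01, 877 IDs were higher and 1168 lower, and under 0.001 the counts were 420 and 579. The excess of falls at the 0.05 threshold turned when each array was centred on its median, to 1661 higher and 1460 lower. It also turned with array weights, where 4648 were higher and 4471 lower.

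**Figure D1:**
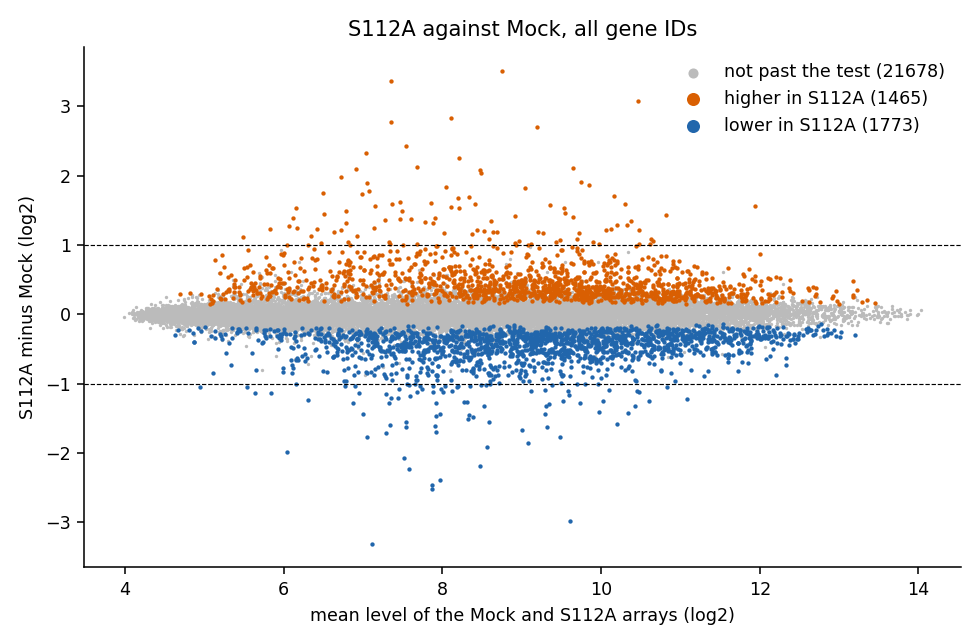
Difference between the S112A and Mock means (log2) against the mean level of the 6 arrays (log2), 1 point per gene ID. The 1465 higher IDs are orange, the 1773 lower ones blue and the others grey, and the dashed lines mark a 2-fold difference. The largest differences, up to 3.51 upward and -3.31 downward, lie at middle levels.

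Over all 24916 IDs, called or not, the differences were centred near 0, with a median of -0.01 and a root mean square of 0.236 on the log2 scale. The central 50% of IDs lay between -0.08 and 0.07, and the central 90% between -0.34 and 0.31. The tails were nearly even in size, with a 1st percentile of -0.70 and a 99th percentile of 0.69. An increase of at least 1.5-fold was seen for 380 IDs and passed the test for 364 of them, and a decrease of that size for 394, of which 381 passed. All 97 IDs (0.389% of those tested) that were at least 2-fold higher and all 87 (0.349%) that were at least 2-fold lower passed. A 3-fold difference was reached by 31 IDs upward and 21 downward, a 4-fold one by 14 and 8, and an 8-fold one by 3 and 1. The 2-fold counts lay between 90 and 108 upward and between 76 and 95 downward under all the alternatives run.

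For most IDs a large change was outside the 95% interval of the difference. The median SE of a difference was 0.07, and the median interval reached 1.12-fold to either side. For 22740 IDs, 91.3% of the total, the interval lay wholly within 1.5-fold of no change. Among them were 1729 of the IDs that passed the test. The interval lay wholly within 2-fold for 24459 IDs or 98.2%. These intervals concern the measured values. Signal over background was not analysed, so at low levels a narrow interval does not exclude a change in RNA. At the other end, 175 IDs had an interval wholly above a 1.5-fold rise and 179 one wholly below a 1.5-fold fall. For a 2-fold change these numbers were 56 and 44. Another 667 IDs did not pass the test while their interval reached past 1.5-fold, so that a change of that size was not excluded for them. The largest of these stood at 9.63, 7.44 and 8.79 in the Mock arrays and at 9.81, 9.40 and 9.57 in the S112A arrays. Its groups overlapped, and the difference of 0.98 had an adjusted p of 0.256 in limma.

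The arrays of the 2 groups did not overlap for 6547 IDs, 26.3% of all, with all S112A arrays above all Mock arrays for 3068 (12.3%) and below them for 3479 (14.0%). Among the 3238 IDs that passed, the groups were apart for 3229. All 745 that also differed by at least 1.5-fold were apart. Another 3318 IDs had separate groups and did not pass.

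Differences were found mainly at middle and high levels. Levels depend on the probes of each ID, so they serve here only to sort the IDs into 10 classes of equal number by their mean over the 12 arrays, from class 1 (lowest) to class 10. In class 1, with means of up to 4.87, 3 IDs were higher and 3 lower, 0.241% of its 2492 IDs. The share called rose to 10.6% in class 5 and to 24.8% in class 8, with means of 9.04 to 9.88, and was 21.5% in class 10. Rises outnumbered falls in classes 2, 3 and 4, by 22 to 14, 56 to 24 and 75 to 51. These classes lie low on the scale, with means of 4.87 to 6.43. Signal over background was not analysed, so falls there may be understated. In class 10 falls outnumbered rises by 332 to 204, and in class 9 by 347 to 264. The median difference over all IDs of a class, called or not, had the opposite sign. It was -0.014, -0.0162 and -0.0207 in classes 2, 3 and 4, and 0.019 and 0.0155 in classes 9 and 10. Centring, which turned the majority over all calls, was not read by class. Differences of at least 2-fold were concentrated in classes 4 to 9, which held 90 of the 97 rises and 81 of the 87 falls. Class 10 held 1 such rise and 3 such falls.

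**Figure D2:**
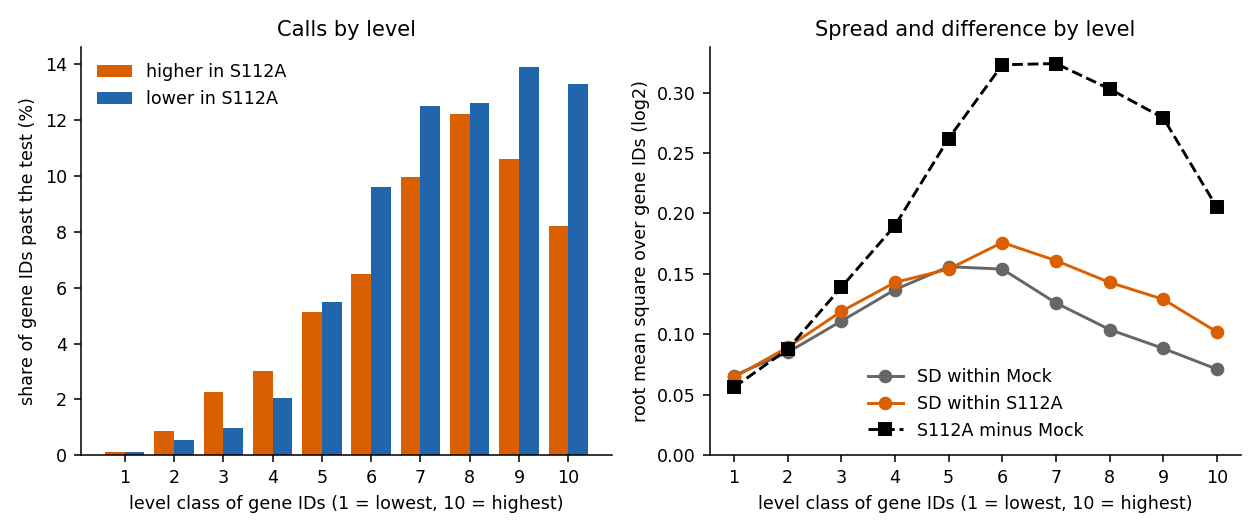
Left, the share of gene IDs (%) higher (orange) or lower (blue) in S112A cells in each of 10 classes by mean level, from the lowest to the highest. Right, the root mean square over IDs (log2) of the SD within Mock (grey), the SD within S112A (orange) and the difference between them (black). The difference exceeds the SD within either group from class 3 upward and peaks in classes 6 and 7. The SDs are those of single arrays and are not the error of a difference between group means.

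The spread within the groups changed along the same axis. In class 1 the root mean square SD was 0.066 in Mock and 0.0645 in S112A, and the root mean square difference was 0.0563. A difference of group means varies less than single arrays do, and its median SE in this class was 0.0519. In class 7 the difference was 0.324 and its median SE 0.0882, with SDs of 0.126 in Mock and 0.161 in S112A. From class 6 upward the S112A arrays varied more than the Mock arrays. The SDs were 0.176 against 0.154 in class 6 and 0.143 against 0.104 in class 8. In classes 9 and 10 they were 0.129 against 0.0884 and 0.102 against 0.0712. The limma fit uses 1 estimate of spread for all groups. Its p-values may therefore be too small where S112A and Mock arrays together vary more than the 4 groups do on average. The spread within WT and Y55F cells was not read by class, so this was not tested.

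Among the leading changes, the 15 largest rises lay between 3.96-fold and 11.4-fold and the 15 largest falls between 3.24-fold and 9.90-fold. These IDs were chosen by size among those that passed with no overlap between the groups, so their differences from Mock and the gap between groups are a description. The rises came from Mock levels of 5.67 to 8.93 and reached 7.72 to 12.01 in S112A cells. The falls came from 7.03 to 11.10 and reached 5.04 to 8.59. The rise ranked 15 was 1.99 on the log2 scale and the one ranked after it 1.91, and the corresponding falls were -1.70 and -1.66, so that no gap sets these IDs apart from those that follow.

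The largest rise was that of ENSG00000167914. Its Mock arrays stood at 7.20, 6.91 and 6.87, and its S112A arrays at 10.32, 10.42 and 10.77. The groups were 3.12 apart at their closest arrays, and all S112A arrays were high. The difference of 3.51 ± 0.12 (log2, SE) is 11.4-fold, with adjusted p = 8.23e-09 in limma.

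ENSG00000163536 had the next largest rise, from 5.83, 5.58 and 5.60 in the Mock arrays to 8.96, 9.06 and 9.10 in the S112A arrays. The S112A arrays agreed closely, with an SD of 0.07. Its difference of 3.37 ± 0.08 (log2, SE) is 10.3-fold, with adjusted p = 3.23e-10 in limma. The Mock mean of 5.67 lies in the range where few IDs were called, and no measure of background was used, so this fold and that of the next ID may understate the change.

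The largest fall was that of ENSG00000005981, from 8.75, 8.70 and 8.86 in the Mock arrays to 5.58, 5.33 and 5.48 in the S112A arrays. All S112A arrays were low, and the closest arrays of the 2 groups were 3.12 apart. The difference was -3.31 ± 0.08 (log2, SE), a 9.90-fold fall with adjusted p = 3.64e-10 in limma.

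ENSG00000121769 followed, at 10.97, 10.96 and 11.36 in Mock and at 7.94, 8.37 and 8.04 in S112A cells. Both groups varied more here, with SDs of 0.23 and 0.22, and still lay 2.59 apart. The difference of -2.98 ± 0.13 (log2, SE) is a 7.87-fold fall, with adjusted p = 1.31e-07 in limma.

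**Figure D3:**
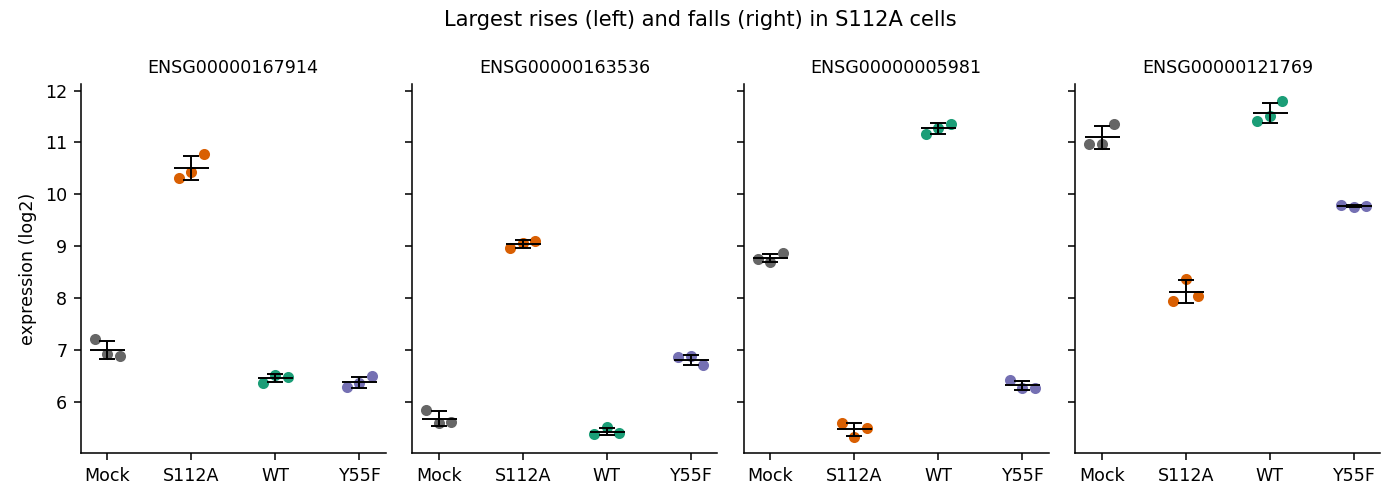
Expression (log2) of the 4 IDs in all 12 arrays, with the 2 largest rises on the left and the 2 largest falls on the right. Points are arrays, and bars give the mean and SD of each group (n = 3). The S112A arrays lie above all others for both rises and below all others for both falls, and for ENSG00000005981 the WT arrays lie above Mock, at 11.16 to 11.36.

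The remaining leading IDs varied in how closely their arrays agreed. The rise ranked 3 stood at 8.95, 8.83 and 9.02 in the Mock arrays and between 11.99 and 12.04 in the S112A arrays, an 8.43-fold difference with an S112A SD of 0.03. The rise ranked 8 spread most, at 5.84, 5.67 and 6.13 in Mock and at 8.92, 8.15 and 7.54 in S112A cells. Its SD of 0.69 in S112A cells compares with a median of 0.20 over the 15 rises. The fall ranked 3 went from 9.22, 9.05 and 9.14 to 6.61, 6.61 and 6.63, with an S112A SD of 0.01. The closest arrays of the 2 groups, apart by the choice of these IDs, lay between 1.40 and 3.12 from each other on the log2 scale.

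No single S112A array carried these changes. Over the 97 IDs at least 2-fold higher, the median distance from the Mock mean was 1.32, 1.45 and 1.40 in S112A replicates 1, 2 and 3. For the 87 at least 2-fold lower it was -1.26, -1.18 and -1.35. The Mock arrays lay within 0.09 of 0 in these medians. After each of the 6 arrays had been left out in turn, 96 of the 97 and 86 of the 87 passed in all 6 fits. The same arrays served to choose these IDs, so their medians and their passing again are in part expected from the choice. The calls as a whole, most of them smaller, were less secure: of all 3238 IDs, 2107 or 65.1% passed in every one of these fits. Of the IDs that differed by at least 1.5-fold, 344 of 364 higher and 370 of 381 lower ones did so.

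**Figure D4:**
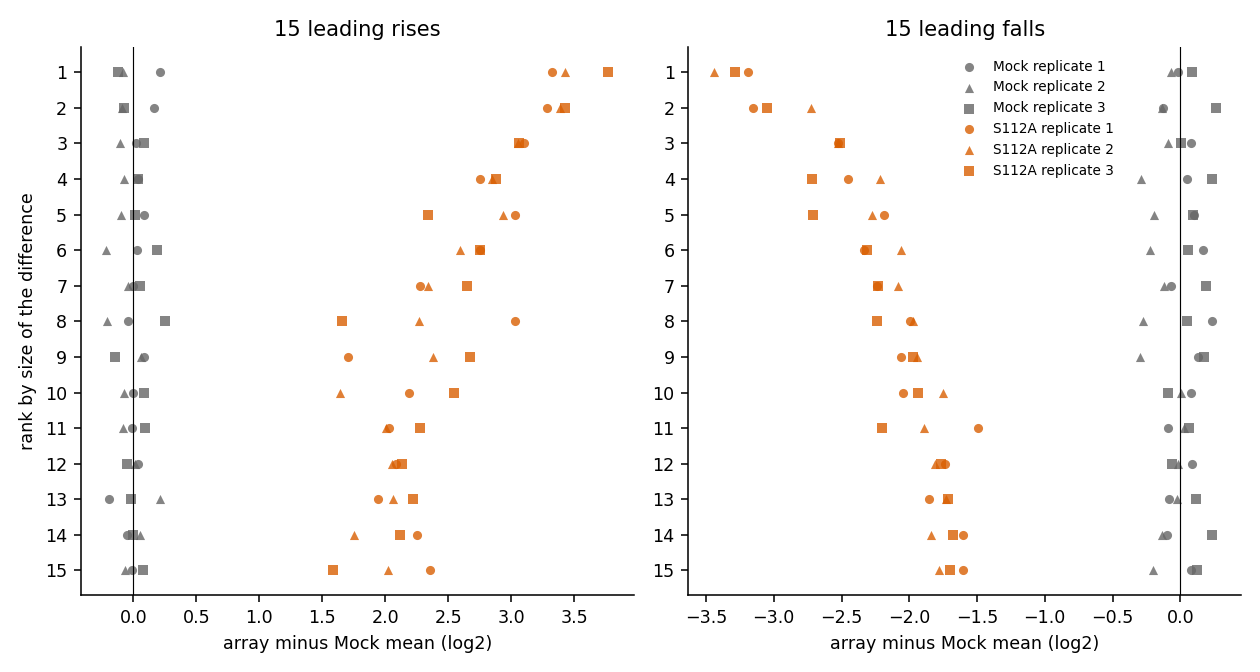
Distance of each Mock (grey) and S112A (orange) array from the Mock mean (log2) for the 15 largest rises and the 15 largest falls, ordered by rank, with a marker shape for each replicate number. By the choice of the 30 IDs all S112A arrays lie to one side of all Mock arrays, and the rise ranked 8 has the widest S112A spread.

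The 2 other constructs served to ask whether the leading changes set S112A cells apart from cells with other forms of SPRY2. S112A was tested directly against WT and against Y55F, where 21.0% and 18.9% of all IDs passed in either direction. Over all IDs, S112A was higher than WT for 9.19% and lower for 11.9%, and higher than Y55F for 9.01% and lower for 9.92%. For WT the majority turned to higher when each array was centred on its median, and array weights raised the number of IDs that passed from 5243 to 8265. These tests use the same S112A arrays by which the IDs were chosen, so a count above those shares is in part expected from the choice. Of the 15 leading rises, 14 were higher in S112A than in WT cells and all 15 were higher than in Y55F cells. The median levels over these 15 IDs were 6.69 in Mock, 6.44 in WT, 6.67 in Y55F and 9.34 in S112A cells. Single IDs lay above or below Mock in WT and in Y55F cells, so the near-equal medians do not mean unchanged levels. Of the 15 leading falls, all were lower in S112A than in WT cells. Against Y55F, 7 were lower in S112A cells, 3 were higher and 5 did not pass. The median levels were 9.09 in Mock, 9.21 in WT, 6.98 in Y55F and 6.63 in S112A cells.

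The 4 IDs given by name differed in what the other constructs showed. ENSG00000167914 stood at 6.45 ± 0.08 in WT and 6.37 ± 0.11 in Y55F cells (SD, n = 3), so that S112A cells were 16.6-fold and 17.5-fold above them, with adjusted p = 4.45e-10 and 1.07e-09 in limma. ENSG00000163536 stood at 5.42 ± 0.07 in WT and at an intermediate 6.81 ± 0.10 in Y55F cells, with S112A cells 12.3-fold and 4.69-fold higher, at adjusted p = 3.52e-11 and 5.65e-09 in limma. ENSG00000005981 spanned the widest range of the 4. It stood at 11.27 ± 0.10 in WT cells, above the 8.77 of Mock, and at 6.31 ± 0.09 in Y55F cells. S112A cells were 56.0-fold below WT cells and 1.80-fold below Y55F cells, with adjusted p = 7.86e-13 and 1.19e-05 in limma. ENSG00000121769 stood at 11.57 ± 0.20 in WT and 9.77 ± 0.03 in Y55F cells, and S112A cells were 10.9-fold and 3.14-fold lower, with adjusted p = 4.42e-09 and 3.89e-06 in limma.

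**Figure D5:**
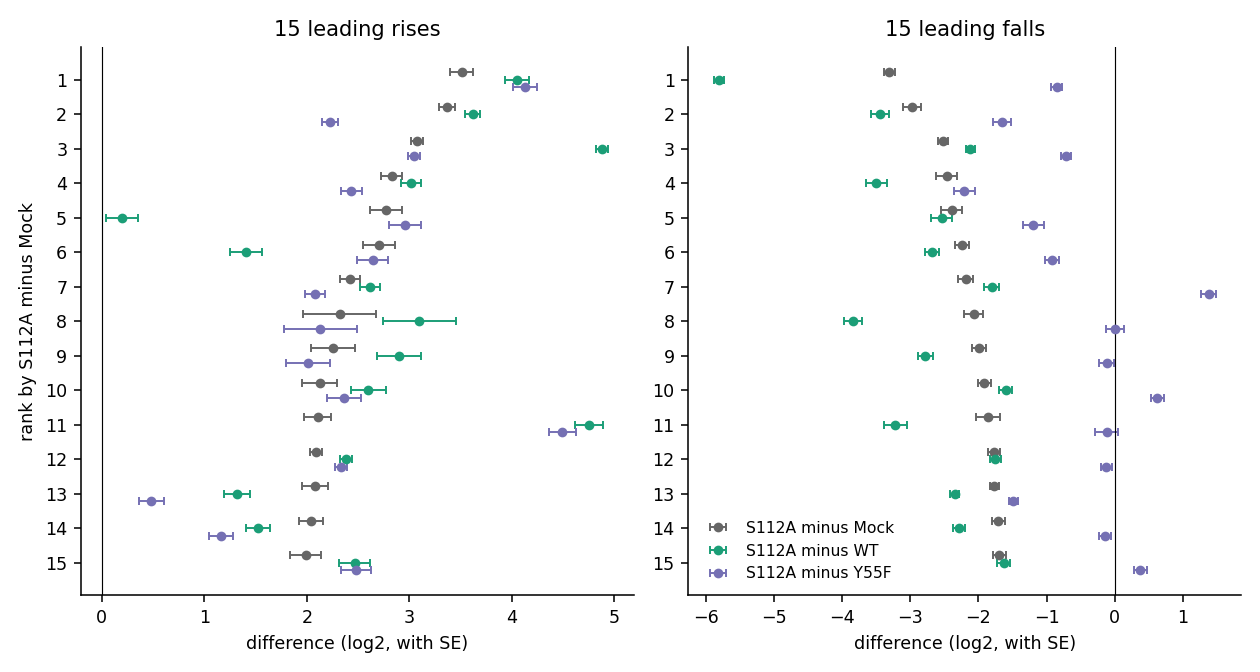
Difference of S112A cells from Mock (grey), WT (green) and Y55F cells (purple) for the 15 largest rises and the 15 largest falls (log2, bars give the SE). For the rises all 3 differences lie above 0, the smallest being 0.20 against WT for the rise ranked 5, while for the falls the differences from Y55F lie on both sides of 0, from -2.21 to 1.38.

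Single leading IDs departed from these patterns. The rise ranked 5 stood at 8.75, 8.33 and 8.52 in the WT arrays and at 8.99, 8.90 and 8.30 in the S112A arrays, which overlapped. That difference of 0.20 did not pass, with adjusted p = 0.485 in limma. In Y55F cells the same ID stood at 5.77, near the 5.96 of Mock. The rise ranked 11 was low in both other constructs, at 5.95 in WT and 6.20 in Y55F cells, against 8.59 in Mock and 10.70 in S112A cells. The rise ranked 13 was above Mock in both, at 8.19 in WT and 9.02 in Y55F cells against 7.43. S112A cells stood at 9.51 there, 1.40-fold above Y55F cells. The rise ranked 6 stood at 9.14 in WT cells, between the 7.84 of Mock and the 10.54 of S112A cells. The fall ranked 7 was lowest in Y55F cells, at 6.0 ± 0.21, against 7.38 ± 0.09 in S112A and 9.56 ± 0.17 in Mock cells (SD, n = 3). The fall ranked 4 was close to Mock in Y55F cells, at 8.84 against 9.09, and S112A cells stood at 6.63.

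The same direct tests were read for the IDs that differed from Mock by at least 2-fold. These IDs too were chosen on the same S112A arrays, so counts above the shares of all IDs are in part expected. Of the 97 rises, 90 were higher in S112A than in WT cells, 1 was lower and 6 did not pass. Against Y55F cells 78 were higher, 3 lower and 16 did not pass. Of the 87 falls, 79 were lower in S112A than in WT cells and 3 higher. Against Y55F cells 48 were lower, 17 were higher and 22 did not pass. The median level of the 87 falls was 8.77 in Mock, 9.18 in WT, 7.93 in Y55F and 7.44 in S112A cells, while that of the 97 rises was 7.43, 7.59, 7.90 and 9.05. Whether rises and falls differ in these shares was not tested.

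S112A cells were above Mock, WT and Y55F cells in all 3 tests at 651 IDs, 2.61% of the total, and below all 3 at 885 IDs, 3.55%. By at least 1.5-fold from each of the other groups, 170 IDs were higher and 117 lower. By at least 2-fold from each, 50 were higher and 17 lower. Of the 97 rises of at least 2-fold from Mock, 74 belonged to the IDs above all 3 groups, and of the 87 falls 44 belonged to those below. All of these had passed the test against Mock by choice, so shares above those of all IDs are in part expected.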

How the data were processed

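RNA was labelled with biotin and hybridised to Affymetrix arrays, and the array model, gene annotation and genome build are not given in the sources used here. What the authors deposited is 1 log2 value per gene ID and array. Per the submitters' processing notes RMA and affy were used, with no version. RMA in its usual form equalises the distributions of the arrays, so that the values cannot show a change in the amount of RNA per cell.

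All 12 arrays were fitted together, with 1 mean for each of the 4 groups, in limma 3.58.1 in R 4.3.3 (8 residual degrees of freedom), with eBayes, no filter and Benjamini-Hochberg adjustment over all 24916 IDs in each comparison. A fold is 2 to the power of a difference of mean log2 values. The procedure was tested on simulated data in which each ID had the same spread in all arrays. That test therefore did not cover groups or arrays of unequal spread. No 2 arrays held identical values. The labels state 3 independent experiments in triplicate but not what a replicate number marks, so the p-values reflect only how much these arrays varied, part of which may be technical.

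Leading IDs were the 15 largest rises and 15 largest falls that passed with groups apart. Since IDs could not be named, the 2 largest of each are printed by ID, as the rule provided. The gene lists drawn up for this comparison need gene symbols and were not run. The comparison, rule and lists were chosen with earlier results of these data known. Alternatives were fitting only the 6 arrays, dropping the third of IDs lowest in mean level, centring, quantile normalizing again, array weights, a trended variance prior, the replicate block, a minimum of 1.5-fold and leaving out each array.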

Additional observations from a re-analysis of the deposited data

How the results depend on the processing

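Of 164 values recomputed under the alternatives, 157 stayed within 1.5 times the count, or kept their direction and side of the threshold. The 30 leading IDs passed in the same direction under every alternative run, and the differences of the 4 IDs given by name kept their sign and stayed past the threshold wherever they were fitted. Array weights gave 9119 IDs for S112A and Mock, 4648 higher and 4471 lower, and 8265 for S112A and WT. They weighted Mock replicate 1 by 5.31 and S112A replicate 2 by 6.06, and the other arrays by 0.467 to 1.35. The cause was not tested. Requiring 1.5-fold as well left 745 IDs, 364 higher and 381 lower; such a limit can never raise a count. Leaving out 1 array gave 2467 to 2990 IDs for S112A and Mock, with 1074 to 1414 higher and 1383 to 1587 lower, 4351 to 4874 for S112A and WT and 3747 to 4762 for S112A and Y55F. The replicate block gave 3630 IDs for S112A and Mock (1685 higher, 1945 lower), 5804 for S112A and WT and 5288 for S112A and Y55F. Same-numbered Mock and S112A arrays deviated from their group means with correlations of 0.09, 0.05 and -0.29, so the numbers were not taken to pair these samples. These correlations did not cover WT and Y55F arrays. The block raised the count in each comparison, from 3238, 5243 and 4716, so whether the numbers pair arrays is not settled. Centring moved the median difference from -0.01 to 0.02, and the majority of calls turned to 1661 higher and 1460 lower. For S112A and WT the majority turned as well. Signal over background was not analysed, which limits folds at low levels.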
